A study of Mus musculus with 12 samples.

Results

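The lysolecithin lesion of young mouse spinal cord at day 3 was compared with naïve white matter of the same age, gene by gene, over 6 of the 12 RNA sequencing pools. The groups were taken from the sample titles: 3 young injured pools against 3 young naïve pools. All C57Bl6 mice of these groups were 6 weeks old by the study's methods, and each pool held the tissue of 5 mice. The injured tissue was ventrolateral white matter cut by laser capture microdissection 72 h after lysolecithin was injected there, and the naïve tissue was the same region of mice that had no lesion, so that the effects of the needle and of the lipid cannot be told apart. The study's surgeries were done under ketamine and xylazine, with buprenorphine against pain, and naïve mice are not described as having had them. Effects of the surgery and of these drugs therefore cannot be told apart from those of the lesion either. No transgene or further agent is described for these groups. The other 6 pools came from middle-aged mice (8 months) with the same treatments, and they entered the model and 1 comparison of the lesion effect. Of the 46078 genes in the deposited table of raw read counts, 15866 had enough counts to be tested, and all of these were described here.

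Lysolecithin is a lysophospholipid that dissolves myelin, the lipid-rich sheath that oligodendrocytes wrap around axons. In the days after the injection, resident microglia and monocytes from the blood take up the myelin debris, store and export its cholesterol, and divide, while astrocytes around the lesion change their shape and gene expression. Oligodendrocyte progenitors are later drawn to the lesion and form new myelin.

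The young pools held 9834447 to 12546383 counts each, so that 3 counts, taken here as the floor of detection, equalled 0.239 to 0.305 CPM (counts scaled by the library total). Counting error alone was covered by this floor and by the intervals given below, because the RNA was amplified during library building. The first principal component of the 6 young pools held 86.2% of the variance and separated injured from naïve pools, and the second held 6.29% and set naïve pool 3 (−49.84) apart from naïve pools 1 (28.55) and 2 (19.93). In naïve pool 3 all 13 neuronal markers that were tested had their lowest naïve value. The summed level of these markers was 5752, 4129 and 2546 CPM in the naïve pools, and the counts of the neuronal, synaptic and axonal lists are therefore also given without pool 3. Mitochondrially encoded genes took 10.54% to 13.24% of the counts in naïve and 8.172% to 10.85% in injured pools. The p-values below measure the spread between pools, and the spread between mice within a pool was not measured.

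Levels are given below as CPM after TMM scaling (edgeR's trimmed mean of M values), in the order of pools 1, 2 and 3. A value after ± is the standard deviation (SD, n = 3 pools) for a level and the standard error for a log2 fold change. Fold changes are injured over naïve, from edgeR's quasi-likelihood test fitted to all 12 pools, with Benjamini-Hochberg adjustment over the 15866 genes. At an adjusted p under 0.05, 8660 genes (54.6%) changed, of which 4483 (28.3% of those tested) rose and 4177 (26.3%) fell. The median log2 fold change of all genes tested was 0.000542. In 5548 genes (35.0%) each injured pool lay above each naïve pool, and in 5109 (32.2%) each lay below. The higher and lower genes were alike in number but not in size. At least 4-fold differences (a log2 fold change of 2 or more) were found among 1698 of the higher and 557 of the lower genes, and at least 16-fold differences (a log2 fold change of 4 or more) among 642 and 12. With library totals in place of TMM, 5380 genes rose and 3236 fell, and the median of all genes moved to 0.197.

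**Figure D1:**
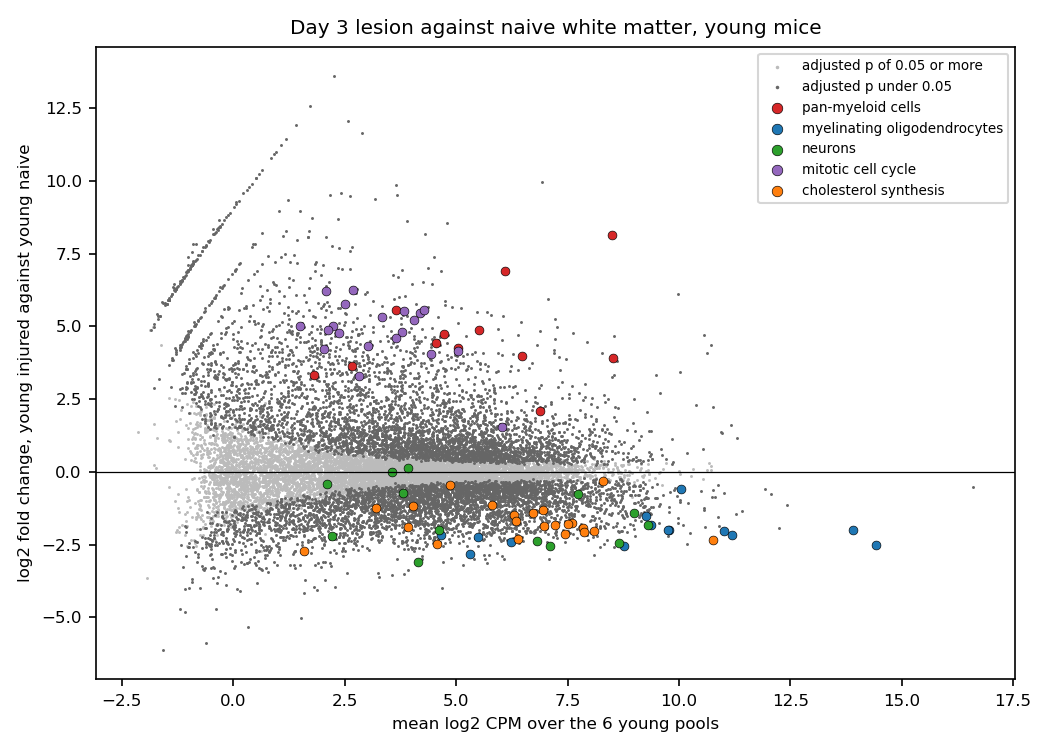
Each point is 1 of the 15866 genes tested, with the mean log2 CPM over the 6 young pools on the x axis and the log2 fold change (injured over naïve) on the y axis, and members of 5 gene lists are coloured. Pan-myeloid and mitotic genes all lie above 0 and myelinating oligodendrocyte genes all below it, while the straight lines of points at the upper left are genes with 0 or few naïve counts, whose fitted fold change is no measure of size.

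The genes were described in 44 lists, 17 of cell type markers and 27 of cell programmes, with 656 different genes. Of these, 614 were tested, 365 rose, 162 fell, 87 were not called and 42 had too few counts. Exon bases were shared with another gene in 163 of the 656, and only some of these are marked below. Counts of a list are set beside the shares of all genes tested, 28.3% higher and 26.3% lower. Members that were low in naïve tissue could pass the filter only through the injured pools, and the number that reached the filter in naïve pools is therefore given too for each list in which it was below the number tested. In tissue pools, more cells of a type and more RNA per cell cannot be told apart, and this holds for each list below. Levels are shares of a pool's counts. A fall can therefore be a smaller share in tissue with more RNA of other cells, without fewer transcripts of the gene. Which of these held was not tested.

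Promoter sequence was read for 6 lists whose programmes have a known DNA element. In 5 of these most members moved in 1 direction, and those of the antioxidant list did not. RefSeq windows of GRCm38.p6, from 250 bases before to 50 bases after a gene's start, were searched on both strands. The letters TTTGAA, the core of the cell cycle genes homology region, were found in 12 of 16 windows of mitotic genes (75%) and in 17.9% of all 32851 windows. CCAAT was found in 15 of the 16 mitotic windows (93.8%), against 37.4% of all windows. The element GAAANNGAA, the spacing of interferon-stimulated response elements, was in 9 of 16 windows of interferon response genes (56.2%) against 8.56%. TCACGTG, part of the lysosomal CLEAR element, was in 5 of 20 windows of lysosome genes (25%) against 3.77%. The antioxidant response element TGACNNNGC was in 6 of 18 windows of its list (33.3%) against 12.4%, the PU.1 box GAGGAAGT in 1 of 9 pan-myeloid windows (11.1%) against 3.2%, and the sterol regulatory letters TCACNCCAC in 1 of 19 windows of cholesterol synthesis genes (5.26%) against 1.24%. Windows were found for 16 of 20 mitotic, 14 of 17 interferon, 15 of 22 lysosome, 13 of 16 antioxidant, 8 of 12 pan-myeloid and 16 of 22 cholesterol synthesis genes. A match is a description of letters and was not tested as a binding site.

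The following stretches show the matches of 4 mitotic, 4 interferon, 2 lysosomal and 1 cholesterol synthesis gene, 5′ to 3′ on the gene's strand, with matched letters in capitals and up to 15 bases on each side. The positions on GRCm38.p6 are Mki67 (chr7:135716457-135716582, minus strand), Top2a (chr11:99024192-99024431, minus strand), Cdk1 (chr10:69352913-69353135, minus strand), Ccnb2 (chr9:70421556-70421736, minus strand), Ifit1 (chr19:34640765-34640828, plus strand), Isg15 (chr4:156200861-156200911, minus strand), Oas1a (chr5:120907526-120907560, minus strand), Rsad2 (chr12:26456548-26456586, minus strand), Ctsd (chr7:142387904-142388077, minus strand), Gla (chrX:134601178-134601248, minus strand) and Hmgcs1 (chr13:119690199-119690237, plus strand). Matches on the other strand are printed as the reverse complement, as ATTGG for CCAAT.
Mki67: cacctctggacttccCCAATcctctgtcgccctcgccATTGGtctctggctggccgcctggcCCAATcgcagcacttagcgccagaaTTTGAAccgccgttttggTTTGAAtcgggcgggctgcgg
Top2a: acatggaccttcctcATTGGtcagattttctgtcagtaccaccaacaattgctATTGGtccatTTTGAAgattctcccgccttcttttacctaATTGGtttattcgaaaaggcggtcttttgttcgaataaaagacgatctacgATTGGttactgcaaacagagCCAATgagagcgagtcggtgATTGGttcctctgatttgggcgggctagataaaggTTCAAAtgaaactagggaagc
Cdk1: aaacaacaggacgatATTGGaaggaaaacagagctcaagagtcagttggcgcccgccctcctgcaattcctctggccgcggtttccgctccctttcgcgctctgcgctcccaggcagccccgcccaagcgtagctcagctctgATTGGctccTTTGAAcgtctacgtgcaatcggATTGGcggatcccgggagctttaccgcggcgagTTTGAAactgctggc
Ccnb2: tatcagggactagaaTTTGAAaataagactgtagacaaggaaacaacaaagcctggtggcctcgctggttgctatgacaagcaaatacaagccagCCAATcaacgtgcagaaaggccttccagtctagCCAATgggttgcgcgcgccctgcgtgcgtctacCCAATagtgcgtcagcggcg
Ifit1: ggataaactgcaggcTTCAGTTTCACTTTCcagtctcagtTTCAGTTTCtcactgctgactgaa
Isg15: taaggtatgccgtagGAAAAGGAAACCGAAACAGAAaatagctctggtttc
Oas1a: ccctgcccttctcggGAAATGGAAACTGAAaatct
Rsad2: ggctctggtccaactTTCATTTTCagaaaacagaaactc
Ctsd: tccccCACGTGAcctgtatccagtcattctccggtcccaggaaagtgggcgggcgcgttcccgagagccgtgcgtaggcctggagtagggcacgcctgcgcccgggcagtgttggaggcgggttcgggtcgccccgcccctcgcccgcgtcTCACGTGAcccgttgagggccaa
Gla: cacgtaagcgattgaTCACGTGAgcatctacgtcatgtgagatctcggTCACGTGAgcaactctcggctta
Hmgcs1: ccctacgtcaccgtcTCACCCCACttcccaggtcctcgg

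Myeloid cells stood out among the cell type lists. All 12 pan-myeloid markers rose, 11 of which also reached the filter in naïve pools, and their median log2 fold change was 4.34. The summed level of the list was 196.5 to 278.1 CPM in naïve and 8955 to 10880 CPM in injured pools. Cd68, a glycoprotein of phagocyte lysosomes, stood at 4.37, 5.98 and 8.49 CPM in the naïve and 752, 730.0 and 747 CPM in the injured pools (log2 fold change 6.90 ± 0.34, adjusted p = 1.08e-09). Lyz2, which encodes lysozyme, stood at 17.6, 23.4 and 23.7 CPM in the naïve and 5632, 7125 and 5596 CPM in the injured pools (log2 fold change 8.15 ± 0.20, adjusted p = 3.96e-12). For both genes the injured pools lay close together and far above every naïve pool. The pan-leukocyte phosphatase Ptprc (CD45) rose by 4.73 ± 0.19, the complement receptor subunit Itgam (CD11b) by 4.43 ± 0.27 and the surface receptor Adgre1 (F4/80) by 5.56 ± 0.23, all on the log2 scale. The smallest change of the list was that of Csf1r, the receptor that microglia and macrophages need to survive, at 50.7, 52.7 and 70.2 CPM in the naïve and 248, 237 and 249 CPM in the injured pools (log2 fold change 2.08 ± 0.18, adjusted p = 3.1e-07). Aif1, the gene of the microglial marker Iba1, rose by 3.32 ± 0.39.

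The markers of homeostatic microglia did not move as a block. Of 12, all of which reached the filter in naïve pools, 8 rose, 1 fell and 3 were not called, with a median of 1.81. P2ry12, the purine receptor that steers microglial processes, stood at 29.8, 40.6 and 29.5 CPM in the naïve and 40.9, 43.0 and 47.8 CPM in the injured pools (log2 fold change 0.40 ± 0.18, adjusted p = 0.0681). Siglech, a sialic acid receptor, stood at 8.65, 11.8 and 13.5 CPM in the naïve and 10.8, 11.5 and 11.1 CPM in the injured pools (log2 fold change −0.026 ± 0.24, adjusted p = 0.939). Both sets of pools nearly met, with each injured P2ry12 value just above the highest naïve one and Siglech values overlapping. Tmem119 rose from 37.2 ± 1.95 to 134 ± 16.8 CPM (log2 fold change 1.85 ± 0.39, adjusted p = 0.00115) and the fractalkine receptor Cx3cr1 from 25.9 ± 4.14 to 113 ± 7.27 CPM (log2 fold change 2.13 ± 0.16, adjusted p = 7.63e-08). Larger changes were found for Fcrls (4.56 ± 0.27) and Olfml3 (3.47 ± 0.21). The transcription factor Sall1, which maintains microglial identity, was lower, at 49.7, 63.3 and 81.4 CPM in the naïve and 37.7, 36.0 and 46.9 CPM in the injured pools (log2 fold change −0.69 ± 0.21, adjusted p = 0.0127). Sall1 gave adjusted p = 0.00167 to 0.279 over 17 alternative settings by edgeR or DESeq2, with the call lost in 5, among them without naïve pool 3, injured pool 1 or injured pool 2.

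Most genes of monocytes and recruited macrophages were close to absent from naïve white matter. The summed level of the list was 33.16 to 47.74 CPM in naïve and 385.1 to 473 CPM in injured pools, and its smallest log2 fold change was 0.42. Of 12 members, 11 were tested and all 11 rose, but only 3 reached the filter in naïve pools. The receptor Ccr2, through which monocytes follow Ccl2 out of the blood, had no count in naïve tissue and 65.8, 79.9 and 48.3 CPM in the injured pools, which made it at least 224-fold higher. Chil3 (Ym1), a chitinase-like protein of alternatively activated macrophages, likewise went from 0 counts to 22.5, 24.3 and 18.9 CPM, at least 75.7-fold higher. Plac8 was at least 17.8-fold higher. These bounds set the naïve level at 3 counts in each pool. The factor XIII subunit gene F13a1 was detected in every pool, at 1.55, 1.72 and 1.94 CPM in the naïve and 215, 245 and 209 CPM in the injured pools (log2 fold change 7.0 ± 0.22, adjusted p = 3.52e-11). Ly6c2, which marks inflammatory monocytes, stayed low, at 0.273, 0.0906 and 0.108 CPM in the naïve and 1.61, 2.33 and 1.66 CPM in the injured pools (log2 fold change 3.46 ± 0.96, adjusted p = 0.00686). The list median was 7.0 with fitted values and 4.15 with the 4 genes that had no naïve count at their bounds.

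The list of lipid-laden and disease-associated phagocytes rose in full, 16 of 16, of which 13 reached the filter in naïve pools, with a median of 4.56. Its summed level was 1714 to 1892 CPM in naïve and 27830 to 28530 CPM in injured pools. Gpnmb (ENSMUSG00000029816, chromosome 6, 49036546 to 49070929, plus strand), a membrane glycoprotein of lipid-loaded macrophages, stood at 2.73, 5.89 and 3.01 CPM in the naïve and 3531, 4366 and 3909 CPM in the injured pools (log2 fold change 9.97 ± 0.67, adjusted p = 2.25e-08). Spp1 (ENSMUSG00000029304, chromosome 5, 104435118 to 104441050, plus strand), the gene of osteopontin, stood at 182, 131 and 65.7 CPM in the naïve and 9412, 8383 and 8455 CPM in the injured pools (log2 fold change 6.11 ± 0.32, adjusted p = 1.87e-09). The 3 injured Spp1 values lay within a narrow range, whereas the naïve values differed among themselves. Trem2, the lipid receptor of microglia, rose from 3.62 ± 0.640 to 77.3 ± 7.74 CPM (log2 fold change 4.41 ± 0.26, adjusted p = 5.72e-09), and the galactose-binding lectin Lgals3 rose from 1.39 ± 0.492 to 519 ± 36.9 CPM (log2 fold change 8.55 ± 0.42, adjusted p = 1e-09). Further large changes were those of the beta-glucan receptor Clec7a (6.46 ± 0.28), the protease inhibitor Cst7 (5.68 ± 0.67) and the integrin Itgax, CD11c (5.61 ± 0.68).

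Lymphocyte and granulocyte markers were few. Only 3 of 15 T, B and NK lymphocyte markers and 5 of 13 neutrophil markers had enough counts to be tested, and 1 and 2 of these reached the filter in naïve pools. Of the 3 lymphocyte markers 2 rose and 1 was not called, and the 1 at the naïve filter did not rise. The list summed to 7.61 to 9.10 CPM in injured pools. Of the 5 neutrophil markers 3 rose, 1 fell and 1 was not called. Of the 2 at the naïve filter 1 rose and 1 fell. Of the T cell receptor complex, Cd3e had 0, 0 and 1 naïve counts and 0, 2 and 0 injured counts, Cd3d had 1 count in all, and Cd3g had no naïve count and 9, 4 and 3 injured counts. The neutrophil calgranulin gene S100a8 had no naïve count and 1.69, 1.47 and 0.753 CPM in the injured pools (at least 4.51-fold higher). Its partner S100a9 had 0 naïve counts and 13, 4 and 4 injured counts, too few to be tested, and Ly6g, which defines mouse neutrophils, had 1 count in naïve and 1 in injured tissue. Csf3r, the receptor for granulocyte colony-stimulating factor, rose from 5.64 ± 1.39 to 55.6 ± 2.42 CPM (log2 fold change 3.31 ± 0.19, adjusted p = 5.19e-09). The collagenase gene Mmp8 was at least 40.2-fold higher, whereas Mmp9 was lower, at 10.2, 9.79 and 6.45 CPM in the naïve and 5.43, 3.64 and 4.74 CPM in the injured pools (log2 fold change −0.94 ± 0.28, adjusted p = 0.0101). Mmp9 gave adjusted p = 0.00477 to 0.0964 over 17 alternative settings by edgeR or DESeq2, with the call lost in 2, among them without injured pool 2. For dendritic cells, all 8 markers were tested and 6 rose, but only 2 reached the filter in naïve pools, neither of which rose, and injured values stayed low, as for Cd209a (1.61, 1.78 and 1.05 CPM, at least 5.13-fold higher) and Clec9a (0.587, 1.47 and 0.452 CPM, at least 2.89-fold higher). Flt3, a cytokine receptor of dendritic cell precursors, fell from 10.3 ± 3.48 to 3.35 ± 0.95 CPM (log2 fold change −1.63 ± 0.30, adjusted p = 0.000325). 

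**Figure D2:**
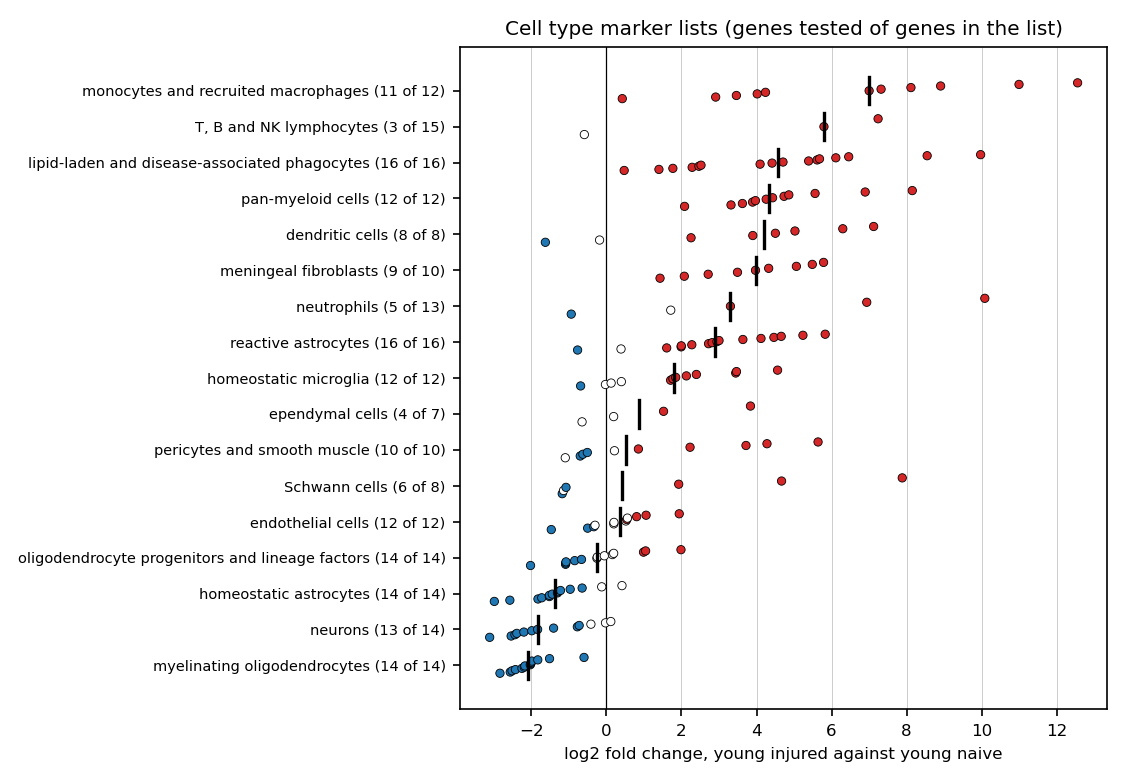
Rows are the 17 cell type lists, with the number tested of the number in the list, each point is 1 tested gene (red higher, blue lower, white not called at an adjusted p under 0.05) and the bar is the median, on an x axis of log2 fold change, injured over naïve, in young mice. Myelinating oligodendrocyte genes all lie below 0 and pan-myeloid genes all above it, and the points farthest to the right include genes with no naïve count, such as Ccr2, Chil3 and Mmp8, whose position depends on the prior count of the fit.

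Receptors that take up lipoproteins and debris were mostly higher. Of 18 scavenger and engulfment receptor genes, 16 were tested, 12 rose, 2 fell and 2 were not called; 11 reached the filter in naïve pools, and of these 8 rose and 2 fell. Cd36, which binds oxidised lipid, stood at 0.729, 0.635 and 0.645 CPM in the naïve and 267, 242 and 297 CPM in the injured pools (log2 fold change 8.62 ± 0.21, adjusted p = 3.96e-12). Msr1, the class A scavenger receptor, stood at 0.364, 0.544 and 0.108 CPM in the naïve and 395, 299 and 316 CPM in the injured pools (log2 fold change 9.86 ± 0.32, adjusted p = 3.52e-11). In both genes the injured pools lay close together and the naïve pools near the floor. Stab1 rose by 5.86 ± 0.24, the phosphatidylserine receptor Havcr2 (TIM-3) by 4.65 ± 0.20 and the engulfment kinase Mertk by 2.57 ± 0.14, while Olr1 was at least 7.11-fold higher and the haemoglobin receptor Cd163 was not called (log2 fold change 0.24 ± 0.57, adjusted p = 0.755). Against the list, Tyro3, a kinase of the same family as Mertk, fell from 77.2 ± 12.1 to 17.9 ± 1.80 CPM (log2 fold change −2.11 ± 0.16, adjusted p = 8.08e-08), and the astrocytic engulfment receptor Megf10 fell as well (log2 fold change −1.5 ± 0.20, adjusted p = 2.15e-05).

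Lysosomal genes rose with the phagocyte markers. Of 22, 17 rose, 2 fell and 3 were not called, with a median of 2.97; 20 reached the filter in naïve pools, of which 15 rose. Ctsd, the main aspartic protease of the lysosome, stood at 297, 289 and 308 CPM in the naïve and 7610.1, 7799.6 and 7919 CPM in the injured pools (log2 fold change 4.71 ± 0.21, adjusted p = 4.45e-10). The cysteine protease gene Ctsb, which shares exon bases with Fdft1, stood at 395, 378 and 387 CPM in the naïve and 6448, 6574 and 6629 CPM in the injured pools (log2 fold change 4.08 ± 0.15, adjusted p = 1.03e-10). The injured pools lay close together for both proteases, and far above the naïve ones. Ctsc rose by 4.98 ± 0.18, Ctsz by 4.37 ± 0.20 and Ctsl by 3.33 ± 0.16. Atp6v0d2, a proton pump subunit of macrophages and osteoclasts, had 4 naïve counts and 33.8, 54.5 and 39.7 CPM in the injured pools (log2 fold change 8.27 ± 0.84, adjusted p = 1.35e-06), and the factor Tfec was at least 23.4-fold higher. Tfeb, which switches on lysosomal genes, was lower (log2 fold change −0.92 ± 0.30, adjusted p = 0.0173), and the osteoclast protease gene Ctsk also fell (log2 fold change −0.60 ± 0.17, adjusted p = 0.00836). Tfeb gave adjusted p = 0.00156 to 0.122 over 17 alternative settings by edgeR or DESeq2, with the call lost in 5, among them without naïve pool 3, injured pool 1 or injured pool 2.

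Genes that store and export cholesterol were higher, those that make it lower. In the list of cholesterol efflux and lipoproteins, 14 of 15 were tested, 10 rose, 1 fell and 3 were not called, with a median of 2.01; 10 reached the filter in naïve pools, of which 7 rose and 1 fell. Abca1, the transporter that loads cholesterol on lipoproteins, stood at 30.7, 33.4 and 43.7 CPM in the naïve and 561, 571 and 670.1 CPM in the injured pools (log2 fold change 4.07 ± 0.19, adjusted p = 5.59e-10). Abcg1 rose from 109 ± 13.1 to 299 ± 31.3 CPM (log2 fold change 1.46 ± 0.15, adjusted p = 1.59e-06), and the liver X receptor gene Nr1h3 rose by 1.1 ± 0.28 while Nr1h2 did not pass the test (log2 fold change −0.036 ± 0.25, adjusted p = 0.918). Apoc2, the activator of lipoprotein lipase, had 1 count in the naïve pools and 147, 219 and 174 CPM in the injured pools, a ratio of 5951, 95% interval 1006 to 221600. Fabp4, a fatty acid carrier of macrophages, was at least 104-fold higher, and Ch25h, which makes 25-hydroxycholesterol, rose from 0.121 ± 0.139 to 36.9 ± 1.05 CPM (log2 fold change 8.06 ± 0.64, adjusted p = 1.11e-07). Cyp27a1, which makes 27-hydroxycholesterol, fell from 42.0 ± 11.4 to 9.53 ± 0.498 CPM (log2 fold change −2.14 ± 0.20, adjusted p = 6.26e-07).

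In contrast, 21 of 22 genes of cholesterol synthesis and its control fell and none rose, all of which reached the filter in naïve pools, with a median of −1.82. Hmgcs1, the enzyme that feeds the pathway, stood at 3385, 3693 and 4717 CPM in the naïve and 783, 717 and 818 CPM in the injured pools (log2 fold change −2.35 ± 0.15, adjusted p = 9.86e-09). The groups were well apart. The later enzymes Lss and Tm7sf2 fell, with log2 fold changes of −2.32 ± 0.15 and −2.47 ± 0.17. Fdps showed the largest fold (log2 fold change −2.73 ± 0.54, adjusted p = 0.000676), with a naïve pool 3 value above the other naïve pools (5.28, 4.35 and 13.5 CPM). The member that was not called, Fdft1 (log2 fold change −0.33 ± 0.17, adjusted p = 0.128), shares exon bases with the cathepsin gene Ctsb, so that reads of the pair may be mixed. It was named after its value was seen.

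Among the cell type lists, myelin genes had the largest fall in summed CPM. All 14 markers of myelinating oligodendrocytes fell, with a median of −2.10 and a summed level that went from 92130 to 109300 CPM in naïve to 20120 to 22660 CPM in injured pools. Mbp, which compacts the sheath, stood at 31603, 29263 and 31226 CPM in the naïve and 7733, 7579.7 and 7646 CPM in the injured pools (log2 fold change −2.0 ± 0.17, adjusted p = 2.34e-07). The injured Mbp values lay close together. Mog, on the outer surface of myelin, fell from 1065 ± 172 to 180.1 ± 22.4 CPM (log2 fold change −2.56 ± 0.14, adjusted p = 3.95e-09), and Mag, at the inner surface next to the axon, fell less, from 1051 ± 218 to 367 ± 72.7 CPM (log2 fold change −1.52 ± 0.19, adjusted p = 8.07e-06). The largest fold of the list was that of Opalin, at 93.6, 102 and 128 CPM in the naïve and 11.2, 19.1 and 14.9 CPM in the injured pools (log2 fold change −2.84 ± 0.20, adjusted p = 4.05e-08). All 14 genes of galactolipid and very long chain lipid synthesis fell too, with a median of −1.47; Aspa and Ugt8a are among the genes that stand in both lists. Ugt8a and Gal3st1, which make galactosylceramide and sulfatide, fell, with log2 fold changes of −1.99 ± 0.17 and −1.85 ± 0.19, and the desaturase Scd2 fell from 9466 ± 1079 to 2505 ± 219.9 CPM (log2 fold change −1.92 ± 0.14, adjusted p = 6.35e-08).

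The oligodendrocyte lineage was divided. Of 14 genes of progenitors and lineage factors, 3 rose, 6 fell and 5 were not called, with a median of −0.25. The share that rose, 21.4%, was below the 28.3% of all genes tested. The share that fell, 42.9%, was above the 26.3% of all genes tested. The progenitor receptor Pdgfra stood at 87.1, 78.2 and 90.9 CPM in the naïve and 175, 161 and 172 CPM in the injured pools (log2 fold change 0.99 ± 0.13, adjusted p = 1.94e-05). The proteoglycan gene Cspg4 (NG2) stood at 8.56, 5.89 and 10.4 CPM in the naïve and 32.2, 28.5 and 37.7 CPM in the injured pools (log2 fold change 1.99 ± 0.24, adjusted p = 6.86e-06). Pdgfra and Cspg4 are also made by fibroblasts and pericytes, whose markers are given below, and the part of those cells was not tested. The lineage factors Olig1 (−0.85 ± 0.15), Olig2 (−0.66 ± 0.13) and Sox10 (−1.08 ± 0.21) and the myelin gene regulator Myrf (−1.09 ± 0.18) fell, as did Enpp6, a gene of newly formed oligodendrocytes (116, 136 and 167 CPM in the naïve and 29.7, 38.1 and 35.3 CPM in the injured pools, log2 fold change −2.02 ± 0.17, adjusted p = 1.77e-07).

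**Figure D3:**
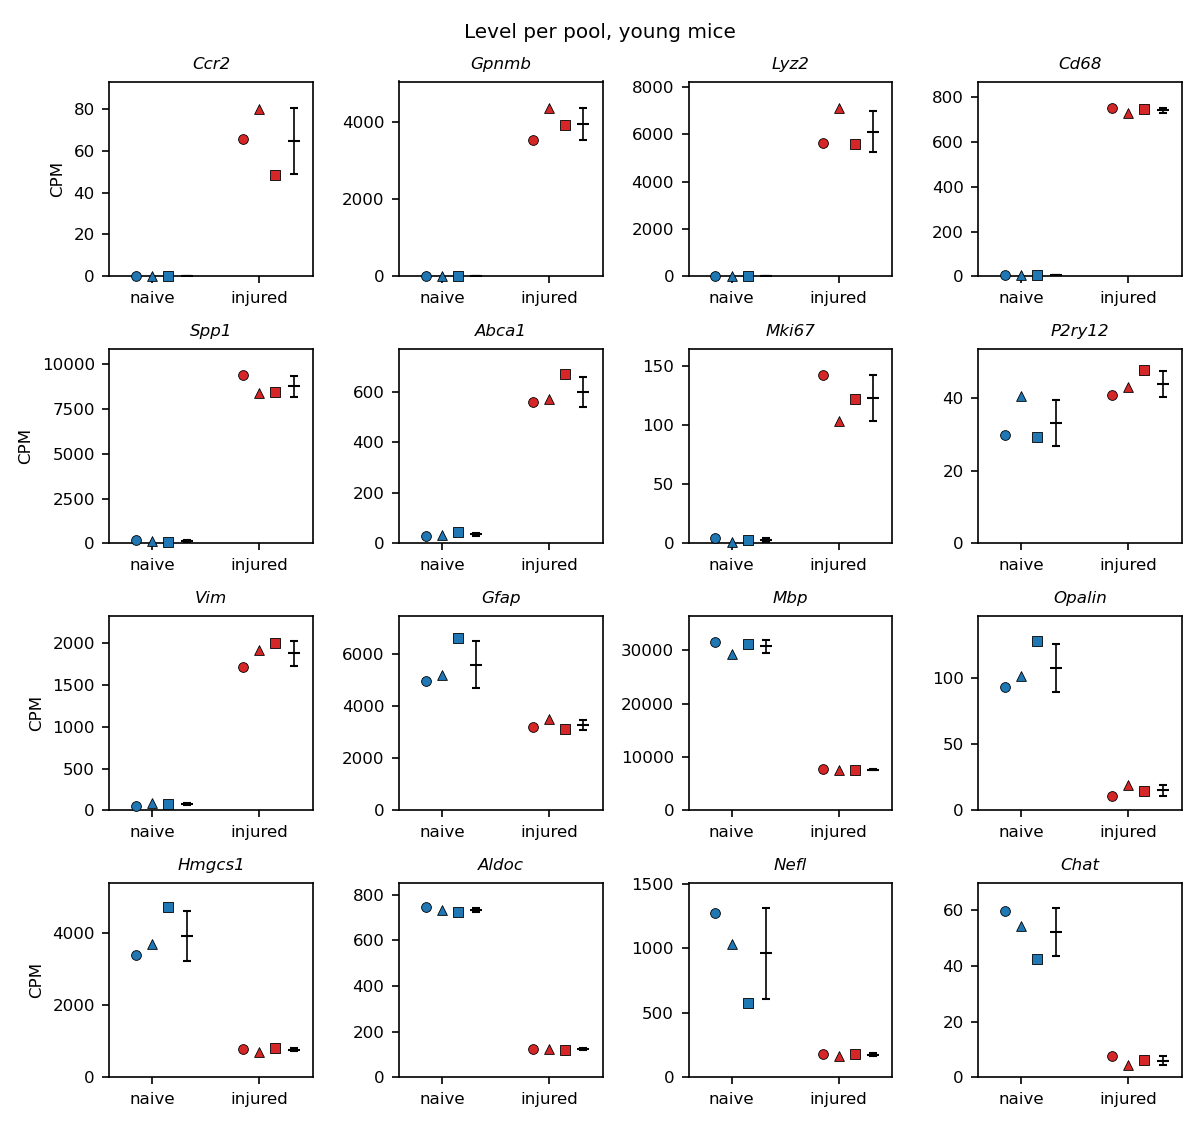
Each panel shows 1 gene, with CPM on a linear y axis that starts at 0, the 3 naïve pools in blue and the 3 injured pools in red (circle, triangle and square for pools 1, 2 and 3), and the bars give the mean and SD of the 3 pools. The groups do not overlap in any of the 16 panels, with the smallest gap for P2ry12 and a Gfap level that is lower in the injured pools while that of Vim is higher.

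Astrocyte genes split by their role. Of 14 homeostatic genes, 12 fell, none rose and 2 were not called, with a median of −1.37; all 14 reached the filter in naïve pools. Aqp4, the water channel of astrocyte endfeet, stood at 2245, 2308 and 2656 CPM in the naïve and 807, 1111 and 1001 CPM in the injured pools (log2 fold change −1.30 ± 0.22, adjusted p = 0.000187). The glutamate transporters Slc1a2 and Slc1a3 fell, with log2 fold changes of −1.82 ± 0.19 and −1.52 ± 0.12. Larger changes were those of Agt, angiotensinogen (329.5, 353 and 476 CPM in the naïve and 41.5, 55.5 and 49.2 CPM in the injured pools, log2 fold change −2.99 ± 0.24, adjusted p = 1.32e-07), and Aldoc (−2.57 ± 0.13). Aldh1l1, a pan-astrocyte marker, was not called (log2 fold change −0.13 ± 0.15, adjusted p = 0.502), with overlapping pools, at 46.6, 51.5 and 48.0 CPM in the naïve and 36.6, 51.2 and 46.1 CPM in the injured ones.

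Of 16 reactive astrocyte genes, 14 rose, 1 fell and 1 was not called, with a median of 2.88; of the 12 that reached the filter in naïve pools 10 rose. The intermediate filament gene Vim stood at 57.4, 87.7 and 77.6 CPM in the naïve and 1714, 1914 and 1994 CPM in the injured pools (log2 fold change 4.66 ± 0.18, adjusted p = 1.13e-10). Gfap, the filament gene by which reactive astrocytes are usually recognised, went the other way, with 4954, 5203 and 6630.2 CPM in the naïve and 3216, 3515 and 3126 CPM in the injured pools (log2 fold change −0.77 ± 0.14, adjusted p = 0.000263). Gfap gave adjusted p = 7.71e-07 to 0.0845 over 17 alternative settings by edgeR or DESeq2, with the call lost in 1, that of a minimum fold of 1.5, and the direction held in all 17. The protease inhibitor gene Serpina3n rose from 24.5 ± 1.91 to 925 ± 182 CPM (log2 fold change 5.24 ± 0.22, adjusted p = 2.85e-10), Timp1 rose from 0.496 ± 0.259 to 29.5 ± 1.24 CPM (log2 fold change 5.83 ± 0.34, adjusted p = 4.95e-09) and the siderophore-binding Lcn2 rose from 0.913 ± 1.11 to 21.1 ± 7.30 CPM (log2 fold change 4.46 ± 0.65, adjusted p = 4.53e-05). Several of these genes, such as Vim, Emp1 (3.64 ± 0.19) and Timp1, are also made by macrophages and fibroblasts, whose markers rose in the same pools, and their part was not tested.

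Neuronal transcripts, which reach white matter in axons and in cells at its border with grey matter, were lower. Of 14 neuronal markers, 13 were tested, 10 fell, none rose and 3 were not called, with a median of −1.83; 12 reached the filter in naïve pools, of which 10 fell. Without naïve pool 3, 11 fell and the median was −2.14, and without naïve pool 1, 9 fell and the median was −1.26. The neurofilament gene Nefl stood at 1271, 1037 and 574 CPM in the naïve and 184, 166 and 183 CPM in the injured pools (log2 fold change −2.44 ± 0.23, adjusted p = 6.68e-07). Chat, the enzyme of motor neurons that makes acetylcholine, stood at 59.4, 54.0 and 42.5 CPM in the naïve and 7.56, 4.34 and 6.10 CPM in the injured pools (log2 fold change −3.11 ± 0.28, adjusted p = 3.72e-07). Naïve pool 3 was lowest for both genes and still lay above every injured pool. Snap25, part of the vesicle fusion machinery, fell, with a log2 fold change of −1.83 ± 0.29, as did the nuclear factor Rbfox3 (NeuN, −2.20 ± 0.39). Syt1 was not called (log2 fold change −0.024 ± 0.40, adjusted p = 0.965), with overlapping pools.

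Of 18 synapse genes, 15 fell and none rose, with a median of −1.43; naïve pool 3 had the lowest naïve value in 17 of them. Without naïve pool 3, 17 fell and the median was −1.67, and without naïve pool 1, 13 fell and the median was −1.16. The vesicle protein gene Syp stood at 60.8, 42.5 and 28.1 CPM in the naïve and 12.5, 10 and 16 CPM in the injured pools (log2 fold change −1.77 ± 0.30, adjusted p = 0.000192). The largest folds were those of the NMDA receptor subunit Grin1 (−2.31 ± 0.36), the glycine receptor subunit Glra1 (−2.30 ± 0.29) and Vamp1 (−2.24 ± 0.28). Snap25 stands in both lists.

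Genes of the nodes of Ranvier, paranodes and axonal channels fell in 13 of 16 cases and rose in 2, with a median of −1.43; 15 reached the filter in naïve pools, of which 13 fell and 1 rose. Naïve pool 3 had the lowest naïve value in 12 of the 16, and without it 13 fell, 2 rose and the median was −1.64. Nfasc, whose isoforms hold axon and glia together at the node and paranode, stood at 819, 779 and 1002 CPM in the naïve and 412, 445 and 523 CPM in the injured pools (log2 fold change −0.91 ± 0.16, adjusted p = 0.000173). The paranodal adhesion genes Cntn1 and Cntn2 fell, with log2 fold changes of −1.37 ± 0.14 and −1.74 ± 0.19, and the sodium channel Scn1a fell too (−2.13 ± 0.25). The 2 that rose were Nrcam (from 106 ± 21.5 to 466 ± 81.9 CPM, log2 fold change 2.13 ± 0.17, adjusted p = 1.3e-07) and Gldn, gliomedin (from 0.791 ± 0.135 to 6.72 ± 0.788 CPM, log2 fold change 3.06 ± 0.51, adjusted p = 0.000135).

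Vascular lists showed smaller and mixed changes. Of 12 endothelial markers, 4 rose, 3 fell and 5 were not called, with a median of 0.36. These shares, 33.3% higher and 25% lower, were close to the 28.3% and 26.3% of all genes tested. Without naïve pool 1 or 2 or injured pool 1 or 2, 1 fell, and without injured pool 1 or 2, 2 rose. Cdh5 (VE-cadherin) rose from 11.1 ± 2.31 to 42.6 ± 12.9 CPM (log2 fold change 1.94 ± 0.25, adjusted p = 1.21e-05) and Pecam1 (CD31) from 17 ± 1.70 to 35.5 ± 7.26 CPM (log2 fold change 1.06 ± 0.19, adjusted p = 0.000346), whereas Slco1c1, the thyroid hormone transporter of the blood-brain barrier, fell from 93.4 ± 17.6 to 33.7 ± 7.30 CPM (log2 fold change −1.47 ± 0.23, adjusted p = 7.96e-05). The tight junction gene Cldn5 was not called, at 7.02, 5.71 and 5.59 CPM in the naïve and 8.52, 11.2 and 6.63 CPM in the injured pools (log2 fold change 0.52 ± 0.22, adjusted p = 0.0581). Of 10 pericyte and smooth muscle genes, 5 rose and 3 fell; 9 reached the filter in naïve pools, of which 4 rose and 3 fell. The contractile genes Acta2 (3.72 ± 0.40) and Tagln (4.28 ± 0.27) and the peptidase Anpep (5.64 ± 0.46) rose, while Rgs5, a pericyte gene, fell from 239 ± 32.4 to 148 ± 15.2 CPM (log2 fold change −0.70 ± 0.22, adjusted p = 0.0144). Rgs5 gave adjusted p = 0.000322 to 0.27 over 17 alternative settings by edgeR or DESeq2, with the call lost in 4, among them without naïve pool 2 or injured pool 1. Without naïve pool 2, injured pool 1 or injured pool 3, 1 gene of this list fell rather than 3. Anpep is also carried by myeloid cells, and Acta2 and Tagln by myofibroblasts.

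Meningeal fibroblast genes rose in 9 of the 9 tested of 10, with a median of 3.97; 7 reached the filter in naïve pools and all 7 rose. The collagen gene Col1a1 stood at 3.37, 1.99 and 1.61 CPM in the naïve and 98.8, 81.2 and 56.3 CPM in the injured pools (log2 fold change 5.06 ± 0.41, adjusted p = 1.28e-07). Col3a1 stood at 9.66, 10.8 and 3.66 CPM in the naïve and 393, 431 and 270.1 CPM in the injured pools (log2 fold change 5.49 ± 0.38, adjusted p = 2.87e-08). Injured pool 3 was lowest in all 9 genes, at a summed 983.6 CPM against 1598 and 1545 CPM, and still lay above every naïve pool in 8 of them. The proteoglycan Dcn rose by 3.97 ± 0.31 and Lum by 4.32 ± 0.42. Markers of Schwann cells, the glia of nerve roots, did not move together, with 3 higher and 2 lower of 6 tested, and 1 higher and 2 lower of the 4 that reached the filter in naïve pools. Egr2 rose (log2 fold change 4.67 ± 0.53, adjusted p = 4.12e-06) and Drp2 fell (log2 fold change −1.18 ± 0.15, adjusted p = 1.26e-05), Prx had 2, 1 and 2 naïve and 34, 8 and 5 injured counts, and Pmp2 had 0 or 1 count in each pool. Only 4 of 7 ependymal markers were tested, and neither of the 2 that reached the filter in naïve pools was called. Foxj1, the factor for motile cilia, was not called (log2 fold change −0.65 ± 0.32, adjusted p = 0.105), Spag17 rose (log2 fold change 1.52 ± 0.48, adjusted p = 0.014; adjusted p = 0.00652 to 0.0685 over 17 alternative settings by edgeR or DESeq2, with the call lost in 2, among them without naïve pool 3 or injured pool 1) and Dnah11 rose (log2 fold change 3.84 ± 0.36, adjusted p = 5.27e-07), although the exons of Dnah11 overlap those of Cdca7l.

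Most chemokine genes reached the filter in injured tissue alone. Of 20 chemokine ligands, 16 were tested, 13 rose, 1 fell and 2 were not called; only 5 reached the filter in naïve pools, of which 2 rose and 1 fell. Ccl2, the ligand of Ccr2, stood at 0.638, 0 and 0 CPM in the naïve and 72.7, 64.1 and 49.3 CPM in the injured pools (log2 fold change 8.05 ± 0.50, adjusted p = 9.26e-09). Ccl3 and Ccl4 rose from 0.273 ± 0.329 to 29.6 ± 5.50 CPM and from 0.162 ± 0.0641 to 17.4 ± 3.35 CPM (adjusted p = 3.44e-07 and 4.37e-07). Ccl7 had 1 naïve count and 26.2, 22.5 and 15.3 CPM in the injured pools, a ratio of 706, 95% interval 119.7 to 26440. The interferon-induced Cxcl10 stood at 25.3, 24.9 and 11.1 CPM in the injured pools, with pool 3 the lowest (log2 fold change 6.08 ± 0.94, adjusted p = 7.33e-05). Cx3cl1, the neuronal ligand of Cx3cr1, fell from 35.3 ± 8.46 to 15.7 ± 1.05 CPM (log2 fold change −1.17 ± 0.19, adjusted p = 0.000139).

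Of 22 inflammatory cytokine and receptor genes, 20 were tested, 17 rose, 1 fell and 2 were not called, and 11 reached the filter in naïve pools, of which 10 rose. Il1a stood at 1.91, 1.54 and 3.12 CPM in the naïve and 31.6, 28.1 and 29.7 CPM in the injured pools (log2 fold change 3.78 ± 0.26, adjusted p = 2.97e-08). Il1b stayed low, with 2 naïve counts and 1.1, 2.33 and 1.36 CPM in the injured pools (a ratio of 26.2, 95% interval 6.58 to 209). Il1rn, the antagonist of both, had 2 naïve counts and 33.8, 48.0 and 30.5 CPM (a ratio of 616, 95% interval 161 to 4824). Tnf had no naïve count and 1.03, 0.930 and 1.28 CPM in the injured pools (at least 3.73-fold higher), Il6 was not called (log2 fold change 0.68 ± 0.94, adjusted p = 0.57), and Nos2 had 1, 8 and 4 naïve and 4, 8 and 3 injured counts. Arg1, arginase, stood at 0.0911, 0.544 and 0.215 CPM in the naïve and 218, 210.4 and 170.4 CPM in the injured pools (log2 fold change 9.39 ± 0.44, adjusted p = 7.5e-10). Il18 was lower (log2 fold change −0.95 ± 0.24, adjusted p = 0.00351).

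Complement genes rose in 13 and fell in 3 of 17 tested, and of the 11 that reached the filter in naïve pools 7 rose and 3 fell. The C1q chains C1qa, C1qb and C1qc, which start the classical pathway, rose by 3.48 ± 0.39, 4.09 ± 0.23 and 4.17 ± 0.26. C3, the central component, was lower, at 113, 166 and 185 CPM in the naïve and 89.8, 78.2 and 82.2 CPM in the injured pools (log2 fold change −0.89 ± 0.19, adjusted p = 0.00106). The receptors for the split products, C3ar1 and C5ar1, rose from 2.30 ± 0.891 to 275 ± 17.5 CPM and from 1.24 ± 0.851 to 155 ± 26.6 CPM (adjusted p = 4.62e-11 and 1.06e-05). The membrane regulators Cd55 and Cd59a, which protect cells from complement, fell, with log2 fold changes of −1.29 ± 0.27 and −1.14 ± 0.16. Of 18 Toll-like receptor pathway genes, 16 rose, with a median of 3.23, and 11 reached the filter in naïve pools, of which 10 rose. Tlr2, which senses bacterial lipopeptides, stood at 4.46, 3.35 and 5.59 CPM in the naïve and 56.9, 65.4 and 57.2 CPM in the injured pools (log2 fold change 3.75 ± 0.22, adjusted p = 5.68e-09), and the nucleic acid sensors Tlr7 and Tlr13 rose by 5.27 ± 0.20 and 5.65 ± 0.21. Tlr3, which senses double-stranded RNA, was not called (log2 fold change 0.12 ± 0.18, adjusted p = 0.62). Of 10 genes of the NADPH oxidase list, 9 rose, but only 5 reached the filter in naïve pools, of which 4 rose. Those that rose included the catalytic subunit Cybb (2.0, 2.27 and 0.860 CPM in the naïve and 256, 321 and 292 CPM in the injured pools, log2 fold change 7.37 ± 0.26, adjusted p = 6.72e-11) and the cytosolic subunit Ncf1 (3.75 ± 0.36).

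Antigen presentation genes rose in both classes. All 12 genes of class I presentation rose, 11 of which reached the filter in naïve pools, with a median of 2.85. B2m, the invariant light chain, stood at 53.6, 65.9 and 53.1 CPM in the naïve and 367, 462 and 470.0 CPM in the injured pools (log2 fold change 2.91 ± 0.17, adjusted p = 4.95e-09). The class I heavy chains H2-K1 and H2-D1, near-identical in parts of their sequence so that reads may be shared, rose by 2.82 ± 0.19 and 2.89 ± 0.17. All 9 class II genes rose as well, but only 2 reached the filter in naïve pools. Cd74, the invariant chain, stood at 0.0911, 0.544 and 0.538 CPM in the naïve and 44.5, 62.9 and 45.0 CPM in the injured pools (log2 fold change 7.01 ± 0.34, adjusted p = 8.21e-10), and H2-Ab1 had 1 naïve count and 11.1, 18.3 and 8.51 CPM in the injured pools (a ratio of 418, 95% interval 70.3 to 15560). Of the 9 class II genes, 7 were highest in injured pool 2.

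Each of the 17 interferon response genes rose, with a median of 3.37; 12 reached the filter in naïve pools and all 12 rose. Ifit1, which binds foreign RNA, stood at 3.64, 4.26 and 4.73 CPM in the naïve and 44.0, 50 and 36.2 CPM in the injured pools (log2 fold change 3.37 ± 0.49, adjusted p = 4.24e-05). Rsad2 (viperin) stood at 5.83, 3.90 and 5.48 CPM in the naïve and 159, 148 and 72.7 CPM in the injured pools (log2 fold change 4.64 ± 0.65, adjusted p = 3.06e-05). Injured pools varied more here than for lysosomal genes, as for Rsad2, lowest in pool 3, and Isg15, highest in pool 2 (5.95, 12.8 and 7.98 CPM, log2 fold change 4.02 ± 0.56, adjusted p = 2.91e-05). Mx1 (6.32 ± 0.77) and Oas1a (5.51 ± 0.43) gave the largest changes among the named members.

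Genes of dividing cells were higher. All 20 mitotic genes were higher, with a median of 4.94, of which 12 reached the filter in naïve pools, and the summed level was 74.16 to 81.31 CPM in naïve and 1210 to 1389 CPM in injured pools. Mki67 (ENSMUSG00000031004, chromosome 7, 135689784 to 135716361, minus strand), the gene of the proliferation antigen Ki-67, stood at 4.28, 1.54 and 2.58 CPM in the naïve and 143, 104 and 122 CPM in the injured pools (log2 fold change 5.45 ± 0.31, adjusted p = 4.36e-09). Top2a, which untangles replicated chromosomes, stood at 2.82, 2.90 and 2.58 CPM in the naïve and 149, 115 and 128 CPM in the injured pools (log2 fold change 5.55 ± 0.19, adjusted p = 4.62e-11). Both genes were highest in injured pool 1, as were 15 of the 20. The kinase Cdk1 and its partner cyclins Ccnb1 and Ccnb2 rose by 5.31 ± 0.23, 5.2 ± 0.34 and 6.25 ± 0.27. The promoter letters TTTGAA shown above for Mki67, Top2a, Cdk1 and Ccnb2 were also in the windows of 8 further members. Of 20 DNA replication genes, 18 rose, with a median of 2.34, and of the 18 that reached the filter in naïve pools 16 rose. Mcm2 and Mcm5 of the replicative helicase rose by 2.56 ± 0.22 and 3.71 ± 0.56, and the ribonucleotide reductase subunit Rrm2 rose from 2.27 ± 0.550 to 122 ± 17.1 CPM (log2 fold change 5.75 ± 0.22, adjusted p = 1.13e-10). Which cells divided cannot be read from tissue pools.

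Matrix genes differed by type. Of 20 interstitial matrix genes, 14 rose and 4 fell, with a median of 2.24; 19 reached the filter in naïve pools, of which 13 rose and 4 fell. Fn1, fibronectin, stood at 37.9, 45.9 and 30.9 CPM in the naïve and 1206, 912 and 1014 CPM in the injured pools (log2 fold change 4.77 ± 0.27, adjusted p = 4.63e-09). Tenascin-C (Tnc) rose from 21.4 ± 3.14 to 266 ± 33.4 CPM (log2 fold change 3.64 ± 0.15, adjusted p = 2.79e-10), and the basement membrane collagens Col4a1 and Col4a2, whose exons overlap, rose by 2.61 ± 0.48 and 2.31 ± 0.24. Those that fell belong to the perineuronal and perinodal matrix: Bcan (brevican, −1.72 ± 0.20), Acan (aggrecan, −1.76 ± 0.55), Hapln1 (−2.06 ± 0.63) and Hapln2 (−2.07 ± 0.17), the last a link protein of nodes. Acan gave adjusted p = 0.000338 to 0.206 over 17 alternative settings by edgeR or DESeq2, with the call lost in 3, among them without naïve pool 2 or injured pool 2, and Hapln1 adjusted p = 0.000757 to 0.104 over 17 alternative settings by edgeR or DESeq2, with the call lost in 2, among them without naïve pool 1 or injured pool 1. Of 19 proteases and inhibitors that were tested, 14 rose and 4 fell, or 2 without injured pool 2, and of the 11 that reached the filter in naïve pools 6 rose and 4 fell. Mmp12, the macrophage elastase, had 3 naïve counts and 65.6, 85.9 and 83.6 CPM in the injured pools (a ratio of 811, 95% interval 279 to 3959), and Adam8 stood at 0.182, 0 and 0.323 CPM in the naïve and 124, 109 and 127 CPM in the injured pools (log2 fold change 9.46 ± 0.38, adjusted p = 1.67e-10). Adamts4, an aggrecanase of oligodendrocytes whose exons overlap those of another gene, fell from 222 ± 45.4 to 83.9 ± 13.7 CPM (log2 fold change −1.40 ± 0.16, adjusted p = 3.35e-06).

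Of 18 growth factor genes tested, 11 rose and 4 fell, with a median of 1.36; 15 reached the filter in naïve pools, of which 8 rose and 4 fell. Igf1, a growth factor of microglia and macrophages, stood at 16.4, 7.52 and 3.55 CPM in the naïve and 388, 367 and 410.3 CPM in the injured pools (log2 fold change 5.39 ± 0.42, adjusted p = 8.56e-08). Tgfb1 stood at 2.46, 2.90 and 2.26 CPM in the naïve and 48.4, 54.6 and 48.5 CPM in the injured pools (log2 fold change 4.30 ± 0.30, adjusted p = 3.03e-08). The naïve pools differed among themselves for Igf1, and the injured pools were close in both genes. Osm, oncostatin M, had 1 naïve count and 4.70, 4.73 and 4.74 CPM in the injured pools (a ratio of 156, 95% interval 26.2 to 5871). Fgf1 fell from 858 ± 76.9 to 208 ± 9.38 CPM (log2 fold change −2.05 ± 0.15, adjusted p = 3.81e-08) and the axonal signal Nrg1 fell from 10.7 ± 5.52 to 3.13 ± 0.417 CPM (log2 fold change −1.78 ± 0.35, adjusted p = 0.000584). The progenitor mitogen Pdgfa was lower (log2 fold change −0.48 ± 0.16, adjusted p = 0.0217), while Pdgfb rose (log2 fold change 1.11 ± 0.24, adjusted p = 0.0014). Pdgfa gave adjusted p = 0.0109 to 0.713 over 17 alternative settings by edgeR or DESeq2, with the call lost in 5, among them without naïve pool 3, injured pool 1 or injured pool 2.

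Energy metabolism genes moved in opposite ways. Of 20 genes of glycolysis and lactate export, 12 rose and 3 fell, with a median of 0.64; 19 reached the filter in naïve pools, of which 11 rose and 3 fell. Hk2 and Hk3, the hexokinases of activated and myeloid cells, rose from 6.06 ± 0.418 to 76.4 ± 8.11 CPM and from 0.385 ± 0.185 to 36.4 ± 1.41 CPM (adjusted p = 5.54e-10 and 6.61e-08). The brain hexokinase Hk1 was lower (log2 fold change −0.54 ± 0.19, adjusted p = 0.028) and the muscle-type phosphofructokinase Pfkm fell (log2 fold change −1.06 ± 0.15, adjusted p = 2.45e-05). Hk1 gave adjusted p = 0.00146 to 0.558 over 17 alternative settings by edgeR or DESeq2, with the call lost in 8, among them without naïve pool 1, naïve pool 2, naïve pool 3, injured pool 1, injured pool 2 or injured pool 3, and without naïve pool 1 or 2 or injured pool 1 or 2 the list held 1 lower gene rather than 3. Ldha, lactate dehydrogenase A, stood at 70.2, 76.0 and 63.1 CPM in the naïve and 539, 539 and 541 CPM in the injured pools (log2 fold change 2.95 ± 0.18, adjusted p = 9.74e-09), and the lactate exporter Slc16a3 rose from 1.36 ± 0.260 to 30.1 ± 1.83 CPM (log2 fold change 4.47 ± 0.40, adjusted p = 3.87e-07). Of 22 nuclear genes of the respiratory chain, 16 fell and none rose, with small changes (median −0.51); with library totals the median was −0.315 and 8 fell, and without naïve pool 1, 9 fell. Cox4i1 fell most, from 899.9 ± 33.2 to 403 ± 46.7 CPM (log2 fold change −1.16 ± 0.24, adjusted p = 0.000879). Of 20 cytosolic ribosomal protein genes, 18 rose, with a median of 0.81 and the largest fold for Rps2 (log2 fold change 1.70 ± 0.16, adjusted p = 6.43e-07). Ribosomal protein genes have many processed copies in the genome, and how shared reads were counted is not given in the sources used here.

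Stress programmes were mixed. Of 18 immediate early and stress genes, 11 rose and none fell, with a median of 1.72, and of the 13 that reached the filter in naïve pools 7 rose. Atf3, an injury-induced factor, stood at 0.911, 1.36 and 1.29 CPM in the naïve and 126, 123 and 125 CPM in the injured pools (log2 fold change 6.70 ± 0.26, adjusted p = 1.5e-10), and Fos and Jun rose by 1.93 ± 0.20 and 1.05 ± 0.17. Of 15 hypoxia response genes, 8 rose and 4 fell (median 0.77), and of the 14 that reached the filter in naïve pools 7 rose and 4 fell. Hif1a rose from 201 ± 7.29 to 559.7 ± 45.7 CPM (log2 fold change 1.48 ± 0.11, adjusted p = 6.81e-08), Vegfa was not called (log2 fold change −0.32 ± 0.19, adjusted p = 0.171) and Ndrg1, also a gene of oligodendrocytes, fell from 1027 ± 198 to 317 ± 28.4 CPM (log2 fold change −1.69 ± 0.20, adjusted p = 6.44e-06). In the antioxidant list, 6 rose, 5 fell and 5 were not called, with a median of −0.059 whose sign turned in 2 alternative settings. Its shares, 37.5% higher and 31.2% lower, were not far from the 28.3% and 26.3% of all genes tested. Hmox1, which breaks down heme, stood at 1.18, 1.09 and 1.29 CPM in the naïve and 73.5, 62.3 and 257 CPM in the injured pools, with pool 3 far above the others (log2 fold change 6.78 ± 0.59, adjusted p = 2.8e-07). Nqo1, Gclc and Gclm, targets of the same regulator Nrf2, fell, with log2 fold changes of −1.48 ± 0.22, −0.84 ± 0.13 and −0.81 ± 0.14. Of 13 iron handling genes tested, 6 rose and 2 fell (median 0.31), and of the 11 that reached the filter in naïve pools 5 rose and 2 fell. The ferritin light chain Ftl1 rose from 106 ± 5.81 to 1464 ± 148 CPM (log2 fold change 3.79 ± 0.18, adjusted p = 8.2e-10) while the heavy chain Fth1, abundant in oligodendrocytes, fell from 8189 ± 923 to 3688 ± 100.2 CPM (log2 fold change −1.15 ± 0.14, adjusted p = 9.33e-06).

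**Figure D4:**
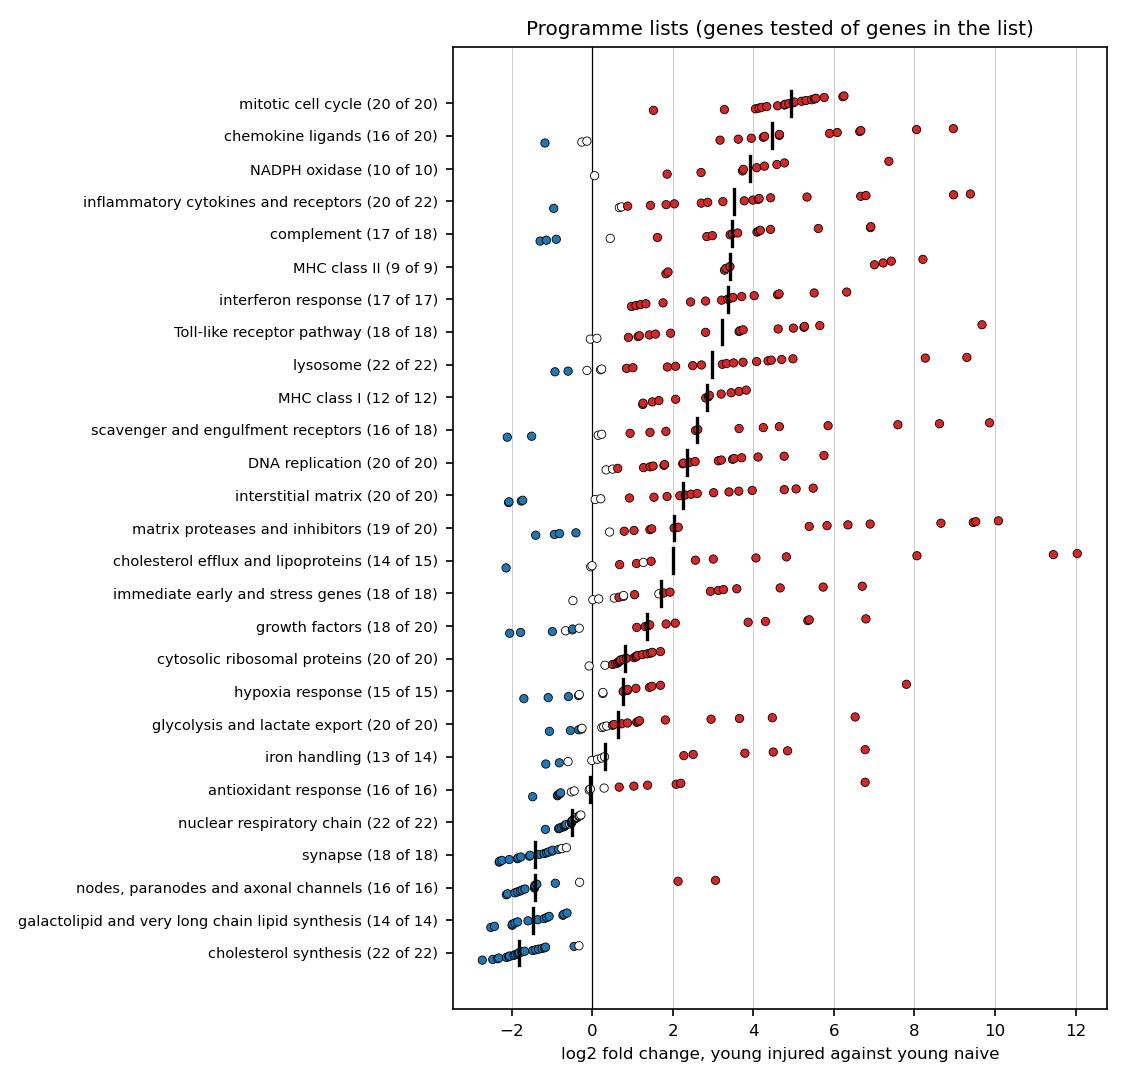
Rows are the 27 programme lists, with the number tested of the number in the list, each point is 1 tested gene (red higher, blue lower, white not called at an adjusted p under 0.05) and the bar is the median, on an x axis of log2 fold change, injured over naïve, in young mice. Mitotic and interferon genes all lie above 0, no gene of cholesterol synthesis, the synapse or the respiratory chain lies above 0, and the antioxidant, iron and hypoxia lists straddle it.

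Among all genes, the 10 with the highest fitted fold change were Cd5l, Ccr2, Apoc2, Htr2b, Hpse, Fabp4, Acp5, Gpnmb, Msr1 and Mmp12, most of them genes of macrophages. Cd5l, an inhibitor of macrophage apoptosis, had no naïve count and 143, 130.3 and 129 CPM in the injured pools, at least 464-fold higher. The serotonin receptor Htr2b was at least 142-fold higher, and its exons overlap those of Psmd1, and the acid phosphatase Acp5 was at least 88.9-fold higher. The heparanase gene Hpse had 2 naïve counts and 180.4, 279 and 251 CPM in the injured pools, a ratio of 3572, 95% interval 1021 to 30460. The 10 with the lowest were Dao, Myoc, Shisa8, Calb1, Esrp1, Ppp1r1b, Kcnj14, Grm3, Etnppl and Cldn10. Dao, D-amino acid oxidase, stood at 12.4, 12.7 and 17.4 CPM in the naïve and 0.22, 0.620 and 0.452 CPM in the injured pools (log2 fold change −5.01 ± 0.43, adjusted p = 2.47e-07). Several of the others are known from astrocytes. Grm3, a glutamate receptor, fell from 47.3 ± 5.48 to 4.10 ± 0.152 CPM (log2 fold change −3.53 ± 0.22, adjusted p = 1.09e-08), Etnppl fell from 30.7 ± 2.56 to 2.77 ± 0.562 CPM (log2 fold change −3.47 ± 0.18, adjusted p = 2.08e-09) and Cldn10 fell from 48.3 ± 2.64 to 4.61 ± 0.578 CPM (log2 fold change −3.39 ± 0.20, adjusted p = 5.76e-09). Calb1 (calbindin), a marker of some neurons, fell from 17.9 ± 4.96 to 1.16 ± 0.175 CPM (log2 fold change −3.94 ± 0.65, adjusted p = 0.000128).

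By share of counts, mt-Rnr2, the large mitochondrial ribosomal RNA, came first in both groups, with 11.24% of the naïve and 9.04% of the injured counts. In naïve tissue the genes with most counts also included Mbp (2.88%), Scd2, Fth1, Gfap, Cnp, mt-Co1, Rtn3 and Mobp. In injured tissue they included Spp1 (0.941%), Ctsd, Grn, Mbp, Ctsb, Lyz2, Actb and Gpnmb, most of them genes known from phagocytes and their lysosomes. Grn, progranulin, rose from 373 ± 67.9 to 7668 ± 599 CPM (log2 fold change 4.36 ± 0.17, adjusted p = 1.16e-10) and Actb, beta-actin, often used as a reference gene, rose from 1322 ± 170.0 to 3999 ± 256 CPM (log2 fold change 1.6 ± 0.17, adjusted p = 2.7e-06). These shares count reads and are not per length.

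The lesion effect was set against that of middle-aged mice in the same model, to see where 6-week mice differed. The 6 young pools and the 6 middle-aged pools do not overlap. Only 22 of 15866 genes (0.139%) differed in their lesion effect at an adjusted p under 0.05, a count that was 3 without young injured pool 2, 56 without middle-aged naïve pool 2, 13 with a replicate block and 254 by DESeq2. Lyz2 rose more in young mice, with a middle-aged log2 fold change of 6.26 ± 0.18 (from 95.7 ± 14.1 to 7360.4 ± 290.3 CPM), and the difference, middle-aged minus young, was −1.89 ± 0.21 (adjusted p = 0.00275). The monocyte gene F13a1 (−1.70 ± 0.29, adjusted p = 0.034) and the astrocyte gene Serpina3n (−1.6 ± 0.27, adjusted p = 0.034) also had larger fold changes in young mice. The injured levels of F13a1 were alike, at 223 ± 19.4 CPM in young and 215 ± 13.9 CPM in middle-aged mice. Its naïve levels differed, at 1.74 ± 0.194 CPM in young and 5.50 ± 1.82 CPM in middle-aged mice. Injured Serpina3n stood at 925 ± 182 CPM in young and 523 ± 20.3 CPM in middle-aged mice. Tm7sf2 of cholesterol synthesis fell more in young mice, with a difference of 1.63 ± 0.24 (adjusted p = 0.0227). Bcan fell less in young mice (−1.83 ± 0.29, adjusted p = 0.0264). Igf2, a growth factor of the meninges, went from 35.2 ± 8.61 to 95 ± 29.3 CPM in young and from 39.8 ± 20.3 to 14.2 ± 3.08 CPM in middle-aged mice (difference −2.91 ± 0.46, adjusted p = 0.0264). Of the 12 genes named for this comparison, Lyz2 and Prelp alone kept the call in all 20 alternative settings. Pan-myeloid markers had a median of 3.72 in middle-aged mice against 4.34 in young mice, myelinating oligodendrocyte genes −2.31 against −2.10, mitotic genes 5.96 against 4.94 and meningeal fibroblast genes 1.96 against 3.97, and these medians were not tested against each other.

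**Figure D5:**
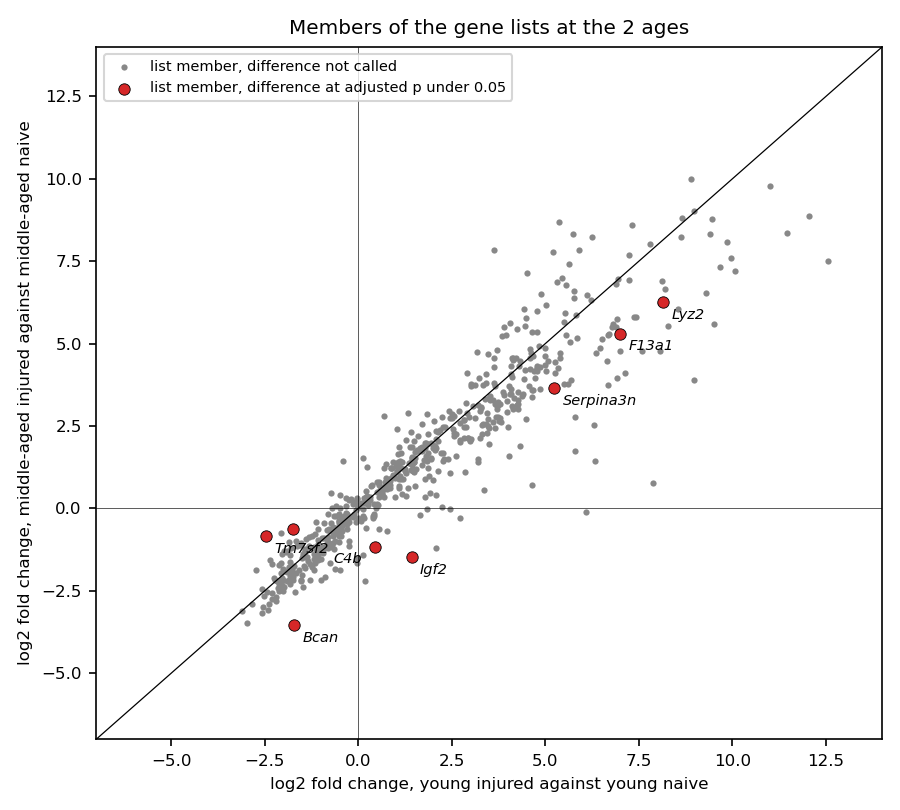
Each point is a tested member of the gene lists, with the log2 fold change (injured over naïve) in young mice on the x axis and in middle-aged mice on the y axis, and the diagonal marks equal effects. Most points follow the diagonal, and the list members whose effects differed at an adjusted p under 0.05 (red) include Lyz2, F13a1, Serpina3n, C4b, Igf2 and Bcan below it and Tm7sf2 above it.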

How the data were processed

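White matter was cut from spinal cord by laser capture microdissection, and RNA of 5 mice was pooled per library, amplified (REPLI-g) and sequenced on a NextSeq500. The authors checked reads with FastQC 0.11.4. Mapping was done by them with TopHat (2.0.10, on bowtie 1.1.2) against the Ensembl GRCm38 genome, and reads were counted per gene with featureCounts. They deposited raw counts for 46078 Ensembl genes. The annotation release, the strand setting and the treatment of shared reads are not given in the sources used here. Amplification, done before counting, adds spread between pools that counting error does not cover.

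From these counts, genes were kept with edgeR's filterByExpr, scaled by TMM, and tested with edgeR 4.0.16 (R 4.3.3, limma 3.58.1) by its quasi-likelihood F test, with 1 coefficient per group over all 12 pools, so that both ages share 1 estimate of the spread. The contrast was young injured minus young naïve, with Benjamini-Hochberg adjustment over 15866 genes and a threshold of 0.05. The standard error is the absolute log2 fold change divided by the root of F. Log2 CPM values used a prior count of 2. The procedure was tested on simulated counts with 200 changed genes. The lesion changed 8660 genes, so that this simulation does not check the scaling under so many changes. With 3 pools against 3, an exact permutation test of 1 gene cannot go below p = 0.1.

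Gene names and coordinates came from GENCODE M21 (GRCm38) by Ensembl identifier, and promoter windows from RefSeq (GRCm38.p6). Genes are named by 4 rules: the 10 highest and 10 lowest fold changes with a mean log2 CPM of at least 1 and no overlap between groups; the 10 genes with most counts in each group; from each list the first 4 members, up to 3 with the largest change and up to 3 called against the list's median; and, for the difference between ages, list members past the threshold and up to 5 others. Some genes under these rules are not reported here. Members and lists were chosen with earlier results of these data known. Fdft1, Nos2 and the untested markers given by their counts were named after their values were seen.

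In young mice, deviations from the group means of pools with the same replicate number correlated at 0.0273, −0.0213 and −0.113. Those with other numbers correlated at −0.105 to 0.104. In middle-aged mice the same numbers gave 0.00492, 0.153 and 0.00774. With 3 pools per group, these values cannot decide whether equal numbers mark a shared batch, and the main fit used no pairing. The alternatives were other scalings, filters and tools (DESeq2 1.42.0), thinned libraries, a minimum fold of 1.5, only the young pools, a replicate block, and leaving out each pool in turn. For gene families grouped by symbol, leaving out each young naïve pool was chosen after seeing the data.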

Additional observations from a re-analysis of the deposited data

Results flagged for a closer look

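In 12 genes named here, of 22 in all, the lesion effect differed between ages by edgeR's quasi-likelihood test of that difference (middle-aged minus young log2 fold change, with 6 pools at each age). The log2 fold change was higher in young mice for Lyz2 (−1.89 ± 0.21), F13a1 (−1.70 ± 0.29), Serpina3n (−1.6 ± 0.27), the complement gene C4b (−1.61 ± 0.26), Igf2 (−2.91 ± 0.46) and the matrix genes Bcan (−1.83 ± 0.29), Postn (−2.44 ± 0.43, periostin), Fmod (−2.37 ± 0.36, fibromodulin) and Prelp (−1.75 ± 0.23). It was higher in middle-aged mice for Tm7sf2 (1.63 ± 0.24) of cholesterol synthesis and the S phase genes Cdca7l (3.24 ± 0.48) and Uhrf1 (2.33 ± 0.37). The adjusted p-values ran from 0.00275 for Lyz2 to 0.0436 for Postn.

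Levels show where the ages parted. Tm7sf2 went from 55.9 ± 6.79 to 10.1 ± 1.25 CPM in young and from 12.1 ± 0.627 to 6.77 ± 0.943 CPM in middle-aged mice, so that the naïve levels differed more than the injured ones. Lyz2 stood higher in naïve tissue of middle-aged mice, where it went from 95.7 ± 14.1 to 7360.4 ± 290.3 CPM, than in that of young mice, where it went from 21.5 ± 3.43 to 6118 ± 873 CPM. Uhrf1, which copies DNA methylation at replication, went from 2.93 ± 0.144 to 47.6 ± 7.5 CPM in young and from 0.594 ± 0.230 to 48.7 ± 10.3 CPM in middle-aged mice. Cdca7l, whose exons overlap those of Dnah11, went from 1.82 ± 0.564 to 24.2 ± 2.15 CPM in young and from 0.196 ± 0.117 to 24.7 ± 3.19 CPM in middle-aged mice. Prelp, a proteoglycan of the meninges, went from 20.1 ± 3.45 to 26.2 ± 1.66 CPM in young mice, without passing the test (log2 fold change 0.39 ± 0.16, adjusted p = 0.0572), and from 31.4 ± 1.08 to 12.2 ± 1.5 CPM in middle-aged mice. Fmod went from 3.84 ± 0.756 to 21.4 ± 4.66 CPM in young and from 6.90 ± 0.940 to 7.37 ± 1.83 CPM in middle-aged mice. For C4b and F13a1 the injured levels were alike and the naïve ones differed. In young mice C4b went from 49.3 ± 15.4 to 67.2 ± 8.71 CPM. In middle-aged mice it went from 154 ± 4.94 to 69.0 ± 10.3 CPM.

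Leaving out a pool changed most of these calls. Lyz2 and Prelp kept theirs in all 20 alternative settings, and the other 10 genes lost theirs in 5 to 12 settings, with the same direction in each.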

How the results depend on the processing

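The number of genes changed in young mice, 8660, stayed within 1.5 times under every alternative but 1. With a minimum fold of 1.5 it was 5415 (2977 higher and 2438 lower), because small changes no longer count. With library totals alone, 62.4% of the calls were higher rather than 51.8%. Leaving out 1 of the 6 young pools gave 7533 to 8259 calls, 3982 to 4312 of them higher and 3551 to 3947 lower. With the replicate number as a block, 8266 genes changed (4331 higher and 3935 lower), 8120 of them shared with the fit without the block. Of 336 genes under the naming rules, 37 lost the call in at least 1 setting and 11 gained it. None turned direction in a setting where it was called there or in the main fit. Genes called in neither could change sign, as did Aldh1l1 (log2 fold change −0.2263 to 0.06999 over 17 settings). The 22 genes that differed between ages became 329 with no filter on low counts, 254 by DESeq2 and 13 with the replicate block, and 3 to 56 on leaving out each of the 12 pools; the cause was not tested. The median of the antioxidant list turned to 0.14 with library totals alone, and ran from −0.15 to 0.048 on leaving out a young pool, the highest without naïve pool 2, and that of Schwann cells to −1.08 with only the young pools in the fit, where fewer genes were tested. Depth limits the immune markers that had a few counts in each pool.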

Other observations

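Gene families outside the lists above were grouped by symbol after the data were seen, and their counts stand beside 28.3% higher and 26.3% lower among all genes tested. Each of the 9 interferon regulatory factor genes rose, from Irf3 (0.96 ± 0.27) to Irf8 (4.03 ± 0.21), a factor of myeloid cells that went from 9.32 ± 2.15 to 152 ± 10.8 CPM. All 7 STAT genes were higher as well. Stat3, which carries cytokine signals in astrocytes, rose little (from 164 ± 13.9 to 234 ± 10.2 CPM, log2 fold change 0.52 ± 0.11, adjusted p = 0.00138), Stat6, the factor downstream of interleukin 4, rose more (from 4.27 ± 0.778 to 55.9 ± 2.16 CPM, log2 fold change 3.70 ± 0.24, adjusted p = 1.24e-08), and Stat4 had no naïve count. Of 9 annexin genes tested, which encode membrane-binding proteins, 6 rose and none fell. Anxa2 went from 299 ± 42.0 to 1946 ± 144 CPM (log2 fold change 2.70 ± 0.15, adjusted p = 4.61e-09), while Anxa5, at 488 ± 73.0 CPM in naïve and 450.4 ± 9.73 CPM in injured tissue, was not called (log2 fold change −0.12 ± 0.14, adjusted p = 0.507).

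The proteasome was divided. Of 18 subunit genes of the 20S core tested, 6 rose and none fell, with a median of 0.16. The share that rose was near the 28.3% of all genes tested. Psmb8, Psmb9 and Psmb10 of the immunoproteasome, the form that cuts peptides for class I presentation, rose by 3.82 ± 0.27, 3.45 ± 0.70 and 1.26 ± 0.25. The constitutive subunits that these replace were not called: Psmb5 (−0.051 ± 0.26, adjusted p = 0.886), Psmb6 (0.31 ± 0.18, adjusted p = 0.167) and Psmb7 (−0.31 ± 0.21, adjusted p = 0.214). Tubulin genes also went both ways, with 4 higher and 6 lower of 12 tested, and the share that rose was likewise near that of all genes tested. Tubb6 rose from 5.51 ± 0.715 to 80.3 ± 12.8 CPM (log2 fold change 3.87 ± 0.20, adjusted p = 2.06e-09) and Tubb5 rose from 321 ± 34.1 to 847 ± 74.1 CPM (log2 fold change 1.40 ± 0.18, adjusted p = 1.5e-05), whereas Tubb4a, known from oligodendrocytes and neurons, fell from 473 ± 61.1 to 257 ± 37.0 CPM (log2 fold change −0.88 ± 0.15, adjusted p = 0.000237), and Tuba4a fell from 198 ± 84.6 to 49.7 ± 3.46 CPM (log2 fold change −2.0 ± 0.28, adjusted p = 2.76e-05). Tubulins are close in sequence, so that reads may be shared between them.

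Of 62 potassium channel genes tested, 39 fell and 5 rose, with a median of −1.35. Naïve pool 3 had the lowest naïve value in 38 of the 62, and without it 39 fell, 4 rose and the median was −1.50. Kcnj10 (Kir4.1), the channel by which astrocytes and oligodendrocytes take up potassium, fell from 1343 ± 26.1 to 575 ± 24.6 CPM (log2 fold change −1.22 ± 0.15, adjusted p = 9.57e-06). The channels that rose were Kcna3, Kcna5, Kcnj2, Kcnk6 and Kcnn4, of which Kcnk6 went from 4.08 ± 3.00 to 21.7 ± 1.02 CPM (log2 fold change 2.43 ± 0.38, adjusted p = 8.51e-05). Among Hox genes, which mark position along the body axis, 10 of 22 tested fell and none rose (6 fell without naïve pool 2), and the most abundant, Hoxd8, fell from 114 ± 6.09 to 31.8 ± 1.06 CPM (log2 fold change −1.84 ± 0.14, adjusted p = 7.63e-08). Of 16 tetraspanins tested, 10 fell and 3 rose, with Tspan2, a gene of myelinating cells, falling from 1116 ± 114 to 243 ± 35.9 CPM (log2 fold change −2.20 ± 0.17, adjusted p = 7.06e-08).

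Some genes held their level. In 1216 genes (7.66%) the 95% interval of the log2 fold change lay inside −0.5 to 0.5, and 80 of these had a mean log2 CPM of at least 8. Rac1 went from 1544 ± 26.9 to 1609 ± 113 CPM and Eif4g2 from 1229 ± 23.9 to 1325 ± 60.6 CPM. Exons of Rac1 overlap those of Daglb, and exons of Eif4g2 overlap those of Gm23262, so that reads may be mixed. By gene type, 57.1% of 13923 protein-coding genes changed, against 44.8% of 355 lincRNA genes and 40.8% of 600 antisense genes. How strand was treated in counting is not given in the sources used here, so that antisense genes and their partners may share reads.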
